A study of Mus musculus with 16 samples.

Results

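The 10 genes described here encode the regeneration-associated transcription factors Atf3, Jun, Sox11, Stat3, Smad1, Klf6, Klf7, Myc, Cebpb and Cebpd, chosen by name from the 52636 genes listed for each library. All 10 passed the filter on low counts, which kept 21371 genes. Bulk RNA was sequenced from dorsal root ganglia (DRGs) of levels L3 to L6 of adult male C57BL/6J mice, 1 mouse per library, 4 mice in each of 4 groups. Mice of the Sham-Saline group had sham surgery and, from 4 weeks later, saline, and mice of the SNI-Saline group had spared nerve injury (SNI) and then saline in the same way. Mice of the Sham-DMI and SNI-DMI groups had the same surgeries and then desipramine (DMI), a tricyclic antidepressant that blocks noradrenaline reuptake. DMI was given at 15 mg/kg in each of 2 injections a day for 3 weeks. SNI ligates and cuts the common peroneal and sural branches of the sciatic nerve and spares the tibial branch, so the pooled ganglia of an injured mouse hold axotomised and intact neurons together. All mice were wild type, and no gene was deleted or added.

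When the peripheral axon of a sensory neuron is cut, a stress kinase cascade runs from the lesion to the cell body and phosphorylates Jun, and Jun and Atf3 then act as dimers of basic leucine zipper proteins on genes of axon growth. Cytokines of the interleukin 6 family act through the receptor gp130 and the kinase Jak2 to activate Stat3, and bone morphogenetic proteins act through their receptors to activate Smad1. Sox11, Klf6, Klf7 and Myc are growth-promoting factors of developing neurons, and Cebpb and Cebpd are CCAAT/enhancer-binding proteins that respond to cytokines and hormones. Several of these proteins, Stat3 and Smad1 above all, are controlled by phosphorylation, which RNA counts do not measure.

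The DNA just before the start site is shown for the 3 factors whose RNA rose after SNI. Sites close to the element bound by Atf and Creb proteins are marked in it. Such sites were not particular to these 3 factors, and their part in the rise was not tested. RefSeq promoter entries of GRCm38.p6 matched 8 of the 10 factors; Myc and Cebpd had none. Each sequence runs 5′ to 3′ on the gene's own strand over the 250 bases before the start that its RefSeq entry gives, and the last base is position -1. Capitals mark sites within 1 base of TGACGTCA and, in Atf3 alone, a copy of TGATGCAA on the opposite strand. The windows are chr1:191183334-191183583 (minus strand) for Atf3, chr4:95052223-95052472 (minus strand) for Jun and chr12:27342719-27342968 (minus strand) for Sox11.
Atf3: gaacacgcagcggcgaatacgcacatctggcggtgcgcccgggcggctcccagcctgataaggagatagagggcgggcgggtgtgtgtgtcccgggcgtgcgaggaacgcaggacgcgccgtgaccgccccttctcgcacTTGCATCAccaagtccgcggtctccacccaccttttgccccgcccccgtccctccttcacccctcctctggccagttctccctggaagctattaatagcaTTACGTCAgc
Jun: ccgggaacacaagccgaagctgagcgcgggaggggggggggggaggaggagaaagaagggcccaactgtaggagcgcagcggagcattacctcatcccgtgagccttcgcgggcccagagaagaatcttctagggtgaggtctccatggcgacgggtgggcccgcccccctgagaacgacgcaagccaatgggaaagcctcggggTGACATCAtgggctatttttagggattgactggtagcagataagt
Sox11: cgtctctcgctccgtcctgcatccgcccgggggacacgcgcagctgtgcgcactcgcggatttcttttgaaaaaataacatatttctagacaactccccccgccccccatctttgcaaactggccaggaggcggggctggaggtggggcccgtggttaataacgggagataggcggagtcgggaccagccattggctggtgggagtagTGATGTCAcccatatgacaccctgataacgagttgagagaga

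The site TTACGTCA lay at -10 to -3 of Atf3, TGACATCA at -45 to -38 of Jun and TGATGTCA at -42 to -35 of Sox11. Sites of this kind were also found in the windows of Klf6, Smad1 and Cebpb, so 6 of the 8 windows had one on either strand, as did 3494 of 32851 RefSeq windows of that length (10.6%). This search for near matches was added after the windows had been read. The exact TGACGTCA, in 1.55% of windows, was in none of the 8. The composite element TGATGCAA, known from genes of the amino acid response, was in 260 windows (0.791%), among them that of Atf3, as TTGCATCA at -110 to -103. The AP-1 element TGANTCA (6.75% of windows), the STAT element TTCNNNGAA (7.02%), the C/EBP element TTGCNNAA (9.56%) and the palindromic glucocorticoid receptor element (0.0365%) were in none of the 8 windows. The E-box CACGTG (6.02%) was in that of Klf6, and the GC box GGGCGGG (23.4%) in 5, those of Atf3, Jun, Sox11, Stat3 and Cebpb, where it is not capitalised. All motifs were sought on both strands, and a site within 1 base of TGACGTCA can overlap other motifs. In the gene models used for the counts of exon length, the last 7 bases of the Atf3 window lie in an Atf3 exon. The whole window lies inside the span of Atf3 in those models (191170296 to 191218039, minus strand). DNA before any start farther upstream is therefore not shown. In the same models the last 102 bases of the Klf7 window, 90 of the Smad1 window and 7 of the Klf6 window lie in exons of those genes. The Smad1 site, TGACGCCA at -16 to -9, lies in such exon bases.

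Each library had between 41194238 and 73920332 reads assigned to genes, so that a factor was counted between 100 times (the lowest Cebpb count) and 32613 times (the highest Stat3 count). Spinal cord stands as the tissue in the labels, with DRG as the cell type, and the levels of markers were those of ganglia: the summed level of markers of sensory neurons was 8257 to 9833 CPM (reads scaled to library size) per library, against 13.1 to 38.9 CPM for markers of spinal cord. The DMI and saline libraries carry separate ranges of library numbers (17 to 24 and 33 to 40), so a difference in library handling and an effect of DMI cannot be told apart. Within each treatment, sham and SNI mice also fall in separate runs of library numbers, so the same holds for the effect of injury. In RNA from whole ganglia, fewer cells of a type and less RNA per cell cannot be told apart.

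Per kilobase of exon, Stat3 had the highest level of the 10 factors in the Sham-Saline group, at 46.2 ± 2.09 CPM per kb (SD, n = 4). Klf7 at 30.5 ± 2.65 CPM per kb and Jun at 29.2 ± 1.29 CPM per kb came next, and their mice overlapped. Klf6 (17.2 ± 0.437 CPM per kb) and Smad1 (7.20 ± 0.512 CPM per kb) followed, each apart from its neighbours. Myc (5.70 ± 0.266 CPM per kb) and Atf3 (4.89 ± 1.0 CPM per kb) overlapped. Cebpd stood at 2.74 ± 0.315 CPM per kb, and Cebpb (1.70 ± 0.174 CPM per kb) and Sox11 (1.42 ± 0.134 CPM per kb) were the lowest and overlapped. In the SNI-Saline group only Stat3 and Jun were above Atf3, which was at 24.3 ± 0.745 CPM per kb, overlapping Klf7 at 23.5 ± 2.16 CPM per kb.

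**Figure D1:**
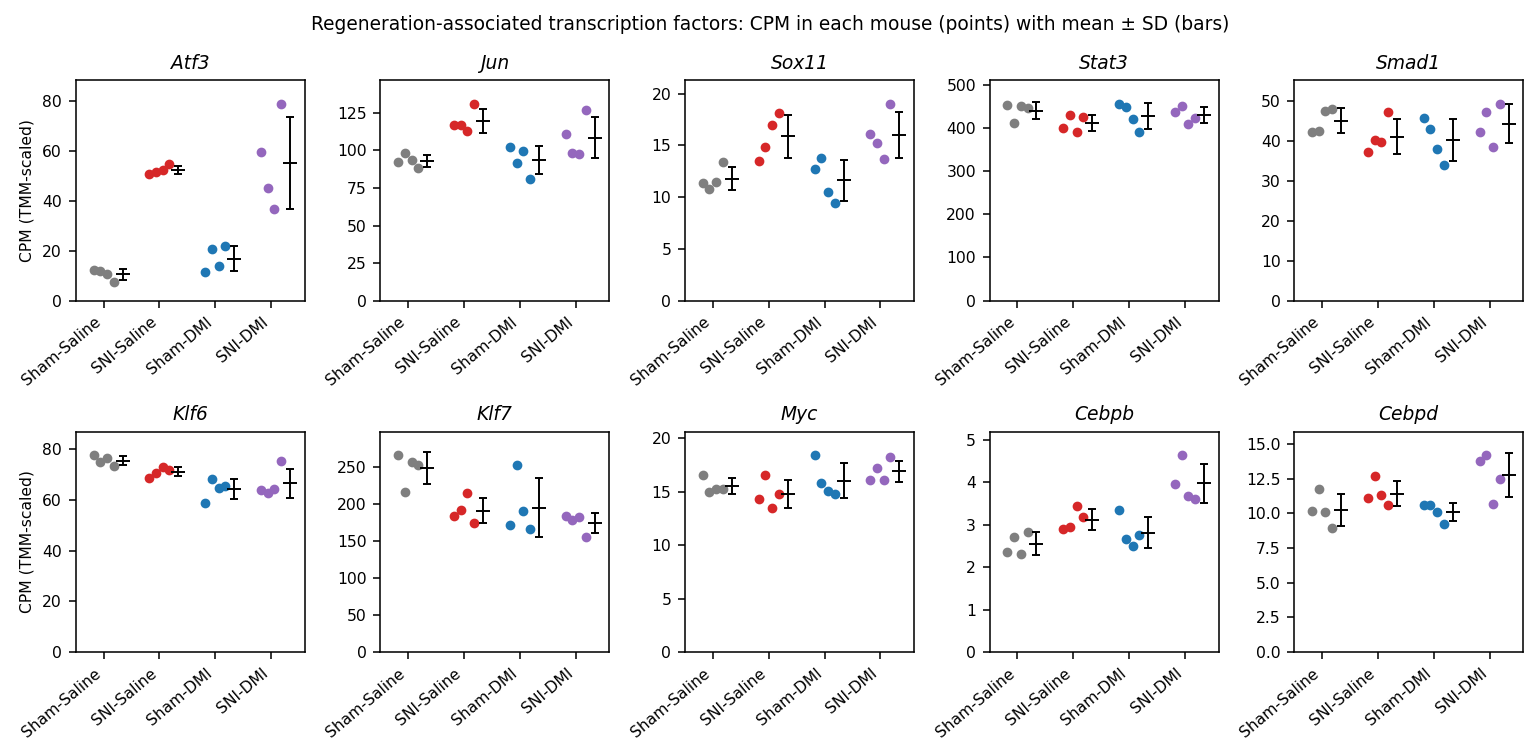
TMM-scaled CPM (linear axes from 0) of the 10 factors in each of the 16 mice (points) with the group mean ± SD (bars), by group. Atf3 lies between 7.44 and 21.8 CPM in all sham mice and between 36.9 and 78.9 CPM in all SNI mice, whereas Stat3 lies between 390 and 456 CPM in all 16.

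The first comparison asked what SNI did without DMI. In SNI-Saline against Sham-Saline mice, 4 of the 10 factors passed the test (edgeR quasi-likelihood, adjusted p under 0.1), where 12.0% of all genes tested did. Atf3, Jun and Sox11 rose (3 of 10, against 5.85% of genes called higher) and Klf7 fell (1 of 10, against 6.18% called lower). The median log2 fold change was 0.05 over the 10 factors and -0.001 over all genes.

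Atf3, a stress-induced basic leucine zipper factor that is a standard marker of axotomised sensory neurons (ENSMUSG00000026628, GRCm38 chromosome 1, 191170296 to 191218039), was at 12.1, 11.9, 10.6 and 7.44 CPM in the Sham-Saline mice. In the SNI-Saline mice it was at 50.9, 51.5, 52.4 and 54.6 CPM. Every injured mouse was above every sham mouse, and the injured mice spanned less than 4 CPM. The rise was 4.98-fold (log2 fold change 2.32 ± 0.222, SE; adjusted p = 2.51e-05).

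Jun, the AP-1 subunit that the kinases of the Jnk family phosphorylate (ENSMUSG00000052684, chromosome 4, 95049034 to 95052222), was at 92.3, 98.1, 93.8 and 88.2 CPM in Sham-Saline mice and at 117, 117, 113 and 131 CPM in SNI-Saline mice. The groups did not overlap, and the rise was 1.28-fold (log2 fold change 0.36 ± 0.082, adjusted p = 0.0221). Sox11, an HMG-box factor of the SoxC group (ENSMUSG00000063632, chromosome 12, 27334264 to 27342574), was at 11.4, 10.8, 11.5 and 13.4 CPM and then at 13.5, 14.8, 17 and 18.1 CPM. The groups lay side by side without overlapping, and the rise was 1.35-fold (log2 fold change 0.43 ± 0.125, adjusted p = 0.0516). Sox11 no longer passed without Sham-Saline replicate 1 (adjusted p = 0.108), Sham-Saline replicate 3 (0.124) or SNI-Saline replicate 4 (0.133). Over all 24 alternative settings, leaving out 1 library included, its adjusted p ran from 0.0104 to 0.133.

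Klf7, a Krüppel-like zinc finger factor of developing sensory neurons (ENSMUSG00000025959, chromosome 1, 64029447 to 64122282), was the factor that fell. It was at 266, 217, 257 and 253 CPM in Sham-Saline mice and at 184, 192, 215 and 174 CPM in SNI-Saline mice, with the highest injured mouse just under the lowest sham mouse. The log2 fold change was -0.38 ± 0.108 (adjusted p = 0.0498). With each library's trend on GC content and exon length removed it was -0.26 (adjusted p = 0.120, against 0.0099 to 0.144 over all alternative settings). Without Sham-Saline replicate 1, 3 or 4 the adjusted p of Klf7 was 0.132, 0.141 and 0.111, and without SNI-Saline replicate 1, 2 or 4 it was 0.144, 0.123 and 0.122.

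The other 6 factors did not pass the test. Klf6 was at 77.6, 74.8, 76.5 and 73.2 CPM in Sham-Saline mice and at 68.8, 70.5, 73.0 and 71.9 CPM in SNI-Saline mice. Its groups did not overlap, with a log2 fold change of -0.09 ± 0.057 (adjusted p = 0.380). Cebpb was at 2.35, 2.72, 2.32 and 2.84 CPM and then at 2.90, 2.95, 3.45 and 3.18 CPM, again without overlap (log2 fold change 0.29 ± 0.125, adjusted p = 0.178). In all, 4 factors were higher and 2 lower without overlap, where 7.67% and 7.74% of genes tested were. Stat3, Smad1, Myc and Cebpd overlapped between the groups, with log2 fold changes of -0.10, -0.13, -0.07 and 0.16. For Stat3, the transducer of gp130 cytokines and the most abundant of the 10, the interval of ± 1.96 SE ran from -0.20 to 0.01.

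Marker lists of other cells moved in the same comparison. The summed level of 10 macrophage markers went from 110 to 132 CPM in Sham-Saline mice to 143 to 244 CPM after SNI. Of the 10, 5 rose (5.85% of all genes were called higher), led by Cd68 and the complement genes C1qb, C1qc and C1qa. The sums of 6 satellite glia markers (2134 to 2363, then 2439 to 2867 CPM) and 16 immediate early genes (172 to 197, then 197 to 215 CPM) were higher, and that of 8 endothelial and pericyte markers (312 to 359, then 251 to 310 CPM) was lower, all without overlap. Of the 6 satellite glia markers 1 was called, Apoe, whose mean went from 1422 to 1777 CPM. The median log2 fold change of these 6 was 0.07. Of the immediate early genes 2 were called higher, and of the endothelial and pericyte markers 0 were called lower (6.18% of all genes were). None of these markers was at 0 in a whole group. These were 4 of 13 lists summed, and the other 9 overlapped. For each of the 4 sums the exact two-sided permutation p was 0.0286, the smallest that 4 against 4 mice can give, and the adjusted p over 52 list tests was 0.248. Their part in the changes of the factors was not tested.

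The same injury in mice given DMI was read in SNI-DMI against Sham-DMI mice. Here Atf3 alone passed the test, 1 of 10 factors (0.402% of genes tested passed, 0.374% of them upward). Atf3 was at 11.4, 20.6, 13.7 and 21.8 CPM in Sham-DMI mice and at 59.5, 45.3, 36.9 and 78.9 CPM in SNI-DMI mice. The groups were far apart, and the rise was 3.25-fold (log2 fold change 1.70 ± 0.216, adjusted p = 0.00211). The spread among mice was wide in this pair of groups, with SDs of 5.11 and 18.3 CPM against 2.16 and 1.60 CPM in the saline pair.

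Sox11 was at 12.7, 13.8, 10.5 and 9.43 CPM in Sham-DMI mice and at 16.1, 15.2, 13.7 and 19 CPM in SNI-DMI mice, a log2 fold change of 0.46 ± 0.125 (adjusted p = 0.157). The lowest SNI-DMI mouse fell just within the range of the sham mice. Jun was at 102, 91.3, 99.7 and 81.3 CPM and then at 111, 98.3, 97.5 and 127 CPM, with overlap (log2 fold change 0.22 ± 0.082, adjusted p = 0.301). Cebpb was at 3.35, 2.66, 2.50 and 2.76 CPM and then at 3.97, 4.64, 3.69 and 3.62 CPM, a log2 fold change of 0.50 ± 0.125 (adjusted p = 0.127). Cebpd, its relative, was at 10.6, 10.6, 10.1 and 9.22 CPM and then at 13.8, 14.2, 10.7 and 12.5 CPM, a log2 fold change of 0.34 ± 0.10 (adjusted p = 0.197). Both C/EBP factors were higher in every SNI-DMI mouse than in any Sham-DMI mouse, as was Atf3, so 3 of 10 factors were higher without overlap (2.89% of genes were) and 0 lower (2.15%).

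The calls of Sox11, Cebpb and Cebpd depended on the tool and the settings. DESeq2 called 4 factors in this comparison, Atf3 together with Sox11 (adjusted p = 0.0319), Cebpb (0.0207) and Cebpd (0.0658). In edgeR, Sox11 passed with no filter on low counts (adjusted p = 0.0532) and with trends on GC content and exon length removed (0.0964). Over all the alternative settings the adjusted p ran from 0.0319 to 0.377 for Sox11, from 0.0207 to 0.329 for Cebpb and from 0.0658 to 0.411 for Cebpd. Without Sham-DMI replicate 1, Sox11 and Cebpb passed in edgeR (0.0817 and 0.0529), and without SNI-DMI replicate 3, Sox11, Cebpb and Cebpd did (0.0839, 0.0917 and 0.0742). Klf7, Klf6, Stat3, Smad1 and Myc overlapped, with log2 fold changes between -0.16 and 0.14. The macrophage marker sum overlapped between the groups (88.9 to 124 CPM, then 115 to 223 CPM; exact two-sided permutation p = 0.0571, adjusted p = 0.297), and its part in the values of Cebpb and Cebpd was not tested.

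**Figure D2:**
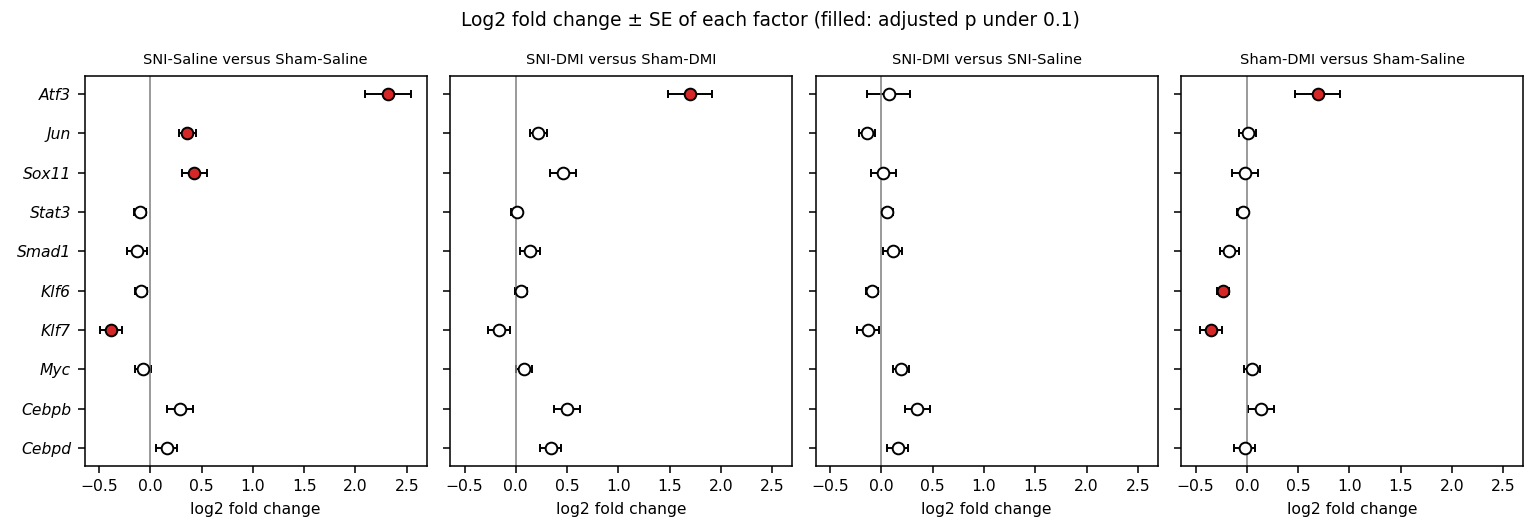
Log2 fold change of each of the 10 factors (point) with its standard error (bar) in 4 comparisons, filled where the adjusted p was under 0.1. Atf3 is filled in both comparisons of injury (2.32 and 1.70) and in Sham-DMI against Sham-Saline (0.69), and no factor is filled in SNI-DMI against SNI-Saline.

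The effect of DMI in injured mice was read in SNI-DMI against SNI-Saline mice, which share the 2 SNI groups with the comparisons above. No factor passed the edgeR test (0 of 10, against 2.93% of genes tested, 1.32% upward and 1.61% downward), 2 had an unadjusted p under 0.05, where 18.5% of genes did, and DESeq2 called 1, Cebpb (adjusted p = 0.0698). Atf3 had means of 52.4 ± 1.60 and 55.2 ± 18.3 CPM (SD, n = 4 each), with 2 SNI-DMI mice below and 2 above all SNI-Saline mice. Its log2 fold change was 0.07, with an interval of ± 1.96 SE from -0.33 to 0.48. For Jun (-0.14, interval -0.30 to 0.02), Sox11 (0.02, -0.23 to 0.26) and Klf7 (-0.13, -0.34 to 0.08) the intervals also included 0.

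Cebpb had the largest log2 fold change of the 10, at 0.35 ± 0.124 (unadjusted p = 0.0109, adjusted p = 0.147 in edgeR). All 4 SNI-DMI mice, at 3.62 to 4.64 CPM, were above the SNI-Saline mice, at 2.90 to 3.45 CPM, which 7.33% of genes also were. None of the 10 was lower in every SNI-DMI mouse, against 5.97% of genes. Over the alternative settings its adjusted p ran from 0.0698 to 0.394, and it was 0.0928 without Sham-DMI replicate 1. Myc, a basic helix-loop-helix factor of cell growth, was at 14.3, 16.6, 13.5 and 14.8 CPM in SNI-Saline mice and at 16.1, 17.2, 16.1 and 18.2 CPM in SNI-DMI mice (log2 fold change 0.19 ± 0.081, edgeR unadjusted p = 0.0275, adjusted p = 0.209). Its groups overlapped by 1 SNI-Saline mouse. The sum of 11 neutrophil markers was 17.5 to 54.2 CPM in SNI-Saline and 5.28 to 15.1 CPM in SNI-DMI mice (exact two-sided permutation p = 0.0286, adjusted p = 0.248), and its part in the values of Cebpb was not tested.

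DMI in mice without injury was read in Sham-DMI against Sham-Saline mice. Atf3 rose, and Klf6 and Klf7 fell, 3 of 10 factors called where 23.4% of all genes were (11.6% upward and 11.9% downward), a share near that of the genes at large. Klf6 had the smallest p, and it was at 58.9, 68.4, 64.7 and 65.5 CPM in Sham-DMI mice, all below the 73.2 to 77.6 CPM of Sham-Saline mice. It was the only factor lower without overlap, against 8.51% of genes, and 0 factors were higher without overlap, against 8.62%. The log2 fold change of Klf6 (ENSMUSG00000000078, chromosome 13, 5861482 to 5870394), a zinc finger factor induced by growth signals, was -0.23 ± 0.058 (adjusted p = 0.0123). With the trends on GC content and exon length removed it was -0.09 (adjusted p = 0.211, against 0.00441 to 0.211 over the alternative settings).

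Klf7 was at 172, 253, 190 and 166 CPM in Sham-DMI mice, and replicate 2 lay among the Sham-Saline mice. The log2 fold change was -0.35 ± 0.108 (adjusted p = 0.0358), and with those trends removed it was -0.21 (adjusted p = 0.15, against 0.000819 to 0.15 over all alternative settings). Klf7 did not pass without Sham-Saline replicate 1 (adjusted p = 0.109) or 3 (0.113), or without Sham-DMI replicate 1 (0.130) or 4 (0.123).

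Atf3 in Sham-DMI mice was mixed. Replicates 2 and 4 were at 20.6 and 21.8 CPM, above all Sham-Saline mice, whereas replicates 1 and 3 were at 11.4 and 13.7 CPM, of which the first lay within the Sham-Saline range. The rise was 1.62-fold (log2 fold change 0.69 ± 0.220, adjusted p = 0.0391). It did not pass without Sham-DMI replicate 4 (log2 fold change 0.56, adjusted p = 0.113) or Sham-Saline replicate 4 (0.56, 0.118), and over the alternative settings the adjusted p ran from 0.00792 to 0.118. Jun, which rose with Atf3 after SNI, had a log2 fold change of 0.01 (interval -0.15 to 0.17), and Sox11 one of -0.02 (interval -0.27 to 0.23). The sum of endothelial and pericyte markers was lower in Sham-DMI mice (267 to 292 CPM, against 312 to 359; exact two-sided permutation p = 0.0286, adjusted p = 0.248). The neutrophil sum overlapped (5.19 to 20.1 CPM, against 12.5 to 43.3, p = 0.0571 in the same exact test), though 7 of the 10 neutrophil markers tested fell (11.9% of all genes did). Their part in the values of the factors was not tested.

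Whether DMI acted otherwise in injured than in sham mice was tested as an interaction over the 4 groups, which is also the difference between both effects of injury. No factor passed (0 of 10), and no gene did in edgeR (0.00% of 21371), where 1692 genes had an unadjusted p under 0.05 and DESeq2 called 16 genes and 0 factors. The difference was -0.62 ± 0.302 for Atf3 on the log2 scale (edgeR unadjusted p = 0.0559, adjusted p = 0.628) and 0.28 ± 0.135 for Smad1 (0.0554 and 0.628). The interval of ± 1.96 SE for Atf3 ran from -1.21 to -0.03, and it is narrower than the test, which allows for the few mice. Smad1, the transducer of bone morphogenetic proteins, was at 42.2, 42.5, 47.6 and 48.1 CPM in Sham-Saline mice and at 37.2, 40.2, 39.7 and 47.3 CPM after SNI with saline. With DMI it was at 45.8, 42.9, 38.1 and 34.1 CPM after sham surgery and at 42.3, 47.3, 38.6 and 49.3 CPM after SNI. All 4 groups of Smad1 overlapped.

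Rules without adjustment gave other counts. At an unadjusted p under 0.05, 5 factors passed in SNI-Saline against Sham-Saline mice (23% of genes), 5 in SNI-DMI against Sham-DMI (12.1%), 2 in SNI-DMI against SNI-Saline (18.5%), 3 in Sham-DMI against Sham-Saline (30.6%) and 0 for the interaction (7.92%). With a log2 fold change of at least 0.32 in either direction as a further condition, the counts were 4 (7.15% of genes), 4 (5.41%), 1 (5.73%), 2 (11.5%) and 0 (3.45%).

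Several genes ranked the mice of a DMI group alike. Among the SNI-DMI mice, replicates 3, 2, 1 and 4 stood in that order from lowest to highest for Atf3, and the same order held for Jun (97.5, 98.3, 111 and 127 CPM) and Sox11 (13.7, 15.2, 16.1 and 19 CPM), but not for the other 7 factors. It also held for the injury-induced genes Sprr1a, which encodes a small proline-rich protein of growing axons (30.1, 37.6, 59.3 and 73.9 CPM), and Npy, which encodes neuropeptide Y (17.6, 19.4, 26.9 and 33 CPM). The coefficient of variation of Atf3 was 33.3% in SNI-DMI and 30.2% in Sham-DMI mice, against 3.06% in SNI-Saline and 20.5% in Sham-Saline mice. Among Sham-DMI mice, replicates 2 and 4, which had the most Atf3, also had the most Sprr1a (12.2 and 9.19 CPM, against 1.81 and 1.67 CPM in replicates 1 and 3) and the most Npy (4.50 and 3.34 CPM, against 0.512 and 1.5 CPM). Jun and Sox11 did not follow there: these same replicates 2 and 4 had the least Jun (91.3 and 81.3 CPM), and they had the most and the least Sox11 (13.8 and 9.43 CPM). All Sham-Saline mice were at 2.06 CPM of Sprr1a or less. These mice were ordered after their values were seen, so no test is given.

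**Figure D3:**
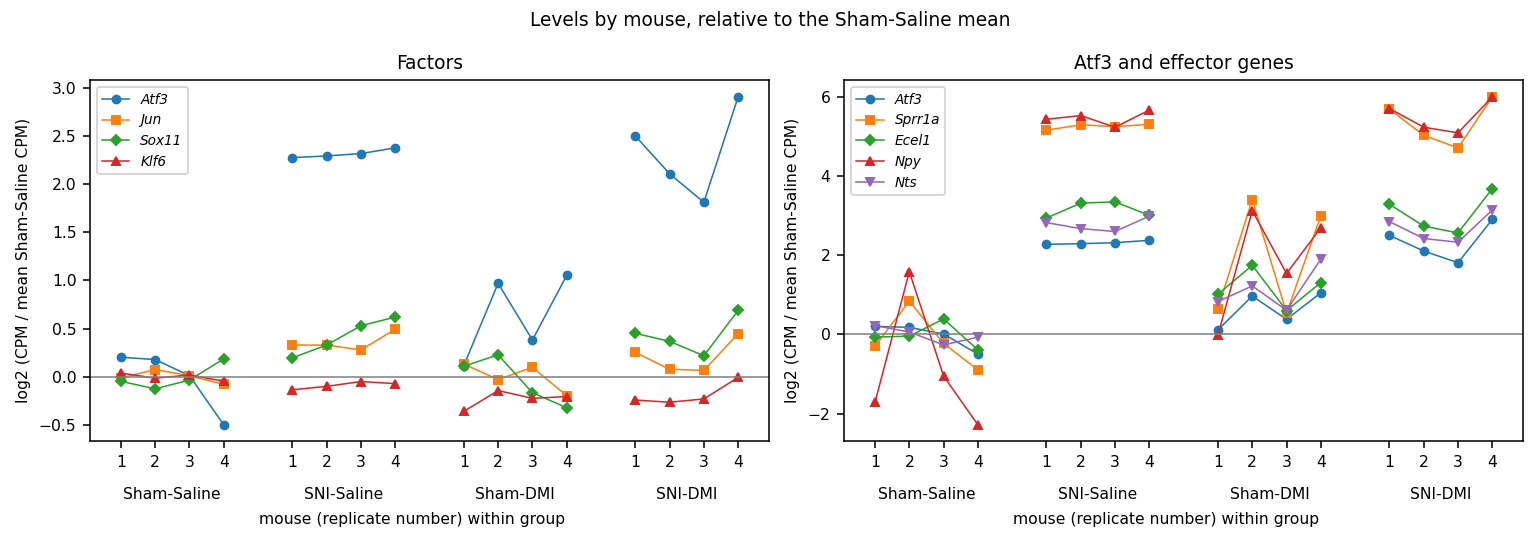
Log2 ratio of each mouse's CPM to the Sham-Saline mean (vertical axis) for 4 factors on the left and for Atf3 with 4 effector genes on the right, by mouse (replicate number) within each group. In the SNI-DMI group all lines on the right dip to replicate 3 and end highest at replicate 4, and in the Sham-DMI group replicates 2 and 4 stand above replicates 1 and 3 for Atf3 (20.6 and 21.8 CPM, against 11.4 and 13.7) and Sprr1a.

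Covariation among the 10 factors was measured over the 16 mice as deviations from group means of log2 CPM, with 45 pairs and permutation within groups (100000 resamples, two-sided). Of these, 32 pairs had a positive r, and 2 passed at an adjusted p under 0.1 over the 45. Sox11 and Smad1 had the closest relation (Pearson r = 0.84, permutation p = 0.00122, adjusted 0.0549; Spearman rho = 0.85, p = 0.00137, adjusted 0.0616). The sign was the same in all 4 groups, and r was 0.83 without the 2 mice farthest from the median. Atf3 and Klf6 followed (r = 0.77, permutation p = 0.00436, adjusted 0.0981; rho = 0.70, p = 0.00736, adjusted 0.110), with r at 0.70 without the 2 farthest mice. So the pair passed by r and not by rho. Atf3 and Jun, both higher after SNI, had an r of 0.22 within groups, which was -0.24 without the 2 farthest mice (adjusted p = 0.852 over the 16 mice by permutation).

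**Figure D4:**
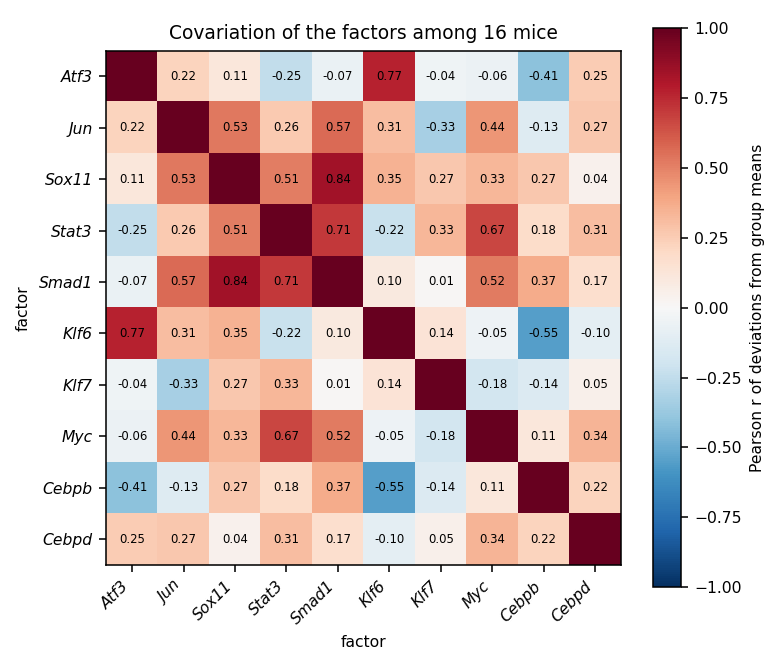
Pearson r of the deviations from group means (log2 CPM, 16 mice) for each pair of the 10 factors, coloured from -1 to 1. The pairs Sox11 with Smad1 (0.84) and Atf3 with Klf6 (0.77) are the strongest.

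The genes most like each factor called after injury, over all 16 libraries, were taken by Pearson r of log2 CPM, as a description that includes the group differences. For Atf3 these were Sprr1a (0.982), Gpr151 (0.979), an orphan receptor of injured sensory neurons, and Ecel1 (0.978), a neuronal endopeptidase. For Jun they were Fst (0.916), the activin-binding protein follistatin, Csf1 (0.910), the growth factor of macrophages and microglia, and Sprr1b (0.885). For Sox11 they were Slc6a4 (0.899), Tmem159 (0.877) and Tecta (0.876). For Klf7 they were Dgki (0.981), Ncor1 (0.972) and Tnks (0.971).

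Few relatives of the 10 factors passed the test after SNI. Of 60 relatives (AP-1 and ATF partners, SoxC, STAT, SMAD, KLF, MYC and C/EBP families), 0 rose and 2 fell in edgeR in SNI-Saline against Sham-Saline mice, 3.33% against 12.0% of all genes. Both were Krüppel-like factors, Klf5 (20.8 ± 2.76 to 14.8 ± 2.16 CPM, log2 fold change -0.49 ± 0.126, adjusted p = 0.0345) and Klf13 (log2 fold change -0.25 ± 0.079, adjusted p = 0.0712). The median log2 fold change of the 19 AP-1 and ATF partners, among them Fos, Junb and Atf4, was -0.00. In SNI-DMI against SNI-Saline mice 1 relative was called (1.67%, against 2.93% of genes), Klf9, a repressor induced by glucocorticoids (log2 fold change -0.28 ± 0.065, adjusted p = 0.0655). In Sham-DMI against Sham-Saline mice 2 relatives rose and 7 fell (15.0%, against 23.4% of genes). Atf4 (0.27 ± 0.074) and Ddit3 (0.29 ± 0.086), factors of the integrated stress response, rose, and Klf9, Klf3, Klf8, Smad4, Smad5, Smad9 and Mga fell, by 0.15 to 0.43 on the log2 scale.

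Upstream of the factors, 34 of 36 genes of 3 pathways were tested. In SNI-Saline against Sham-Saline mice 2 rose and 3 fell (14.7%, against 12.0% of genes). The 2 that rose belong to the gp130 pathway of Stat3. Socs3, the feedback inhibitor that Stat3 induces, went from 10.5 ± 1.33 to 13.3 ± 0.767 CPM (SD, n = 4 each; log2 fold change 0.35 ± 0.110, SE; adjusted p = 0.0684). Il6 was close to the limit of detection, at 0.123 ± 0.0926 and 0.358 ± 0.0877 CPM (1.5 ± 0.451, adjusted p = 0.0571). The receptor genes Lifr (-0.43 ± 0.10, adjusted p = 0.0228) and Bmpr2 (-0.46 ± 0.090, adjusted p = 0.0118) fell, as did Map3k13, a kinase of the injury cascade (-0.36 ± 0.092, adjusted p = 0.0345).

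In SNI-DMI against SNI-Saline mice 1 of the 34 upstream genes was called, 2.94% against 2.93% of all genes. It was Mapk8, which encodes a Jun kinase and fell (-0.24 ± 0.069, adjusted p = 0.0993). In Sham-DMI against Sham-Saline mice 1 rose (Id1, a target of Smad proteins) and 4 fell (Bmpr2, Bmpr1a, Jak2 and Mapk9), 14.7% against 23.4% of genes.

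Effector genes of regeneration, a list of 25 of which 24 were tested, were read beside Atf3. The list was chosen with earlier results of these data known, so its counts describe these genes and do not test the list. In SNI-Saline against Sham-Saline mice 13 rose and 0 fell (5.85% of genes rose and 6.18% fell), with a median log2 fold change of 0.39. The smallest p-values were those of Ecel1 (log2 fold change 3.16 ± 0.258, adjusted p = 5.50e-06), Nts, which encodes neurotensin (2.78 ± 0.232, 5.50e-06), Sprr1a (5.23 ± 0.540, 5.05e-05) and Npy (5.41 ± 0.592, 9.15e-05). In SNI-DMI against Sham-DMI mice 8 rose and 0 fell (0.374% and 0.0281% of genes), with a median of 0.29. Ecel1 (1.90 ± 0.241), Nts (1.49 ± 0.219), Sprr1a (2.97 ± 0.453) and Npy (3.26 ± 0.501) again had the smallest p-values. In SNI-DMI against SNI-Saline mice 1 rose and 0 fell (1.32% and 1.61% of genes). The 1 that rose was Hspb1, a small heat shock protein (0.33 ± 0.075, adjusted p = 0.0630). In Sham-DMI against Sham-Saline mice 9 rose and 2 fell (11.6% and 11.9% of genes). Lgals1 (0.37 ± 0.061) and Nts (1.24 ± 0.227) rose, and Fgf2 (-0.44 ± 0.074) and Cacna2d1 (-0.57 ± 0.106) fell, with the smallest p-values of the list there. Ecel1 (1.24 ± 0.257), Sprr1a (2.46 ± 0.544) and Npy (2.23 ± 0.612) were also among the 9 that rose.

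**Figure D5:**
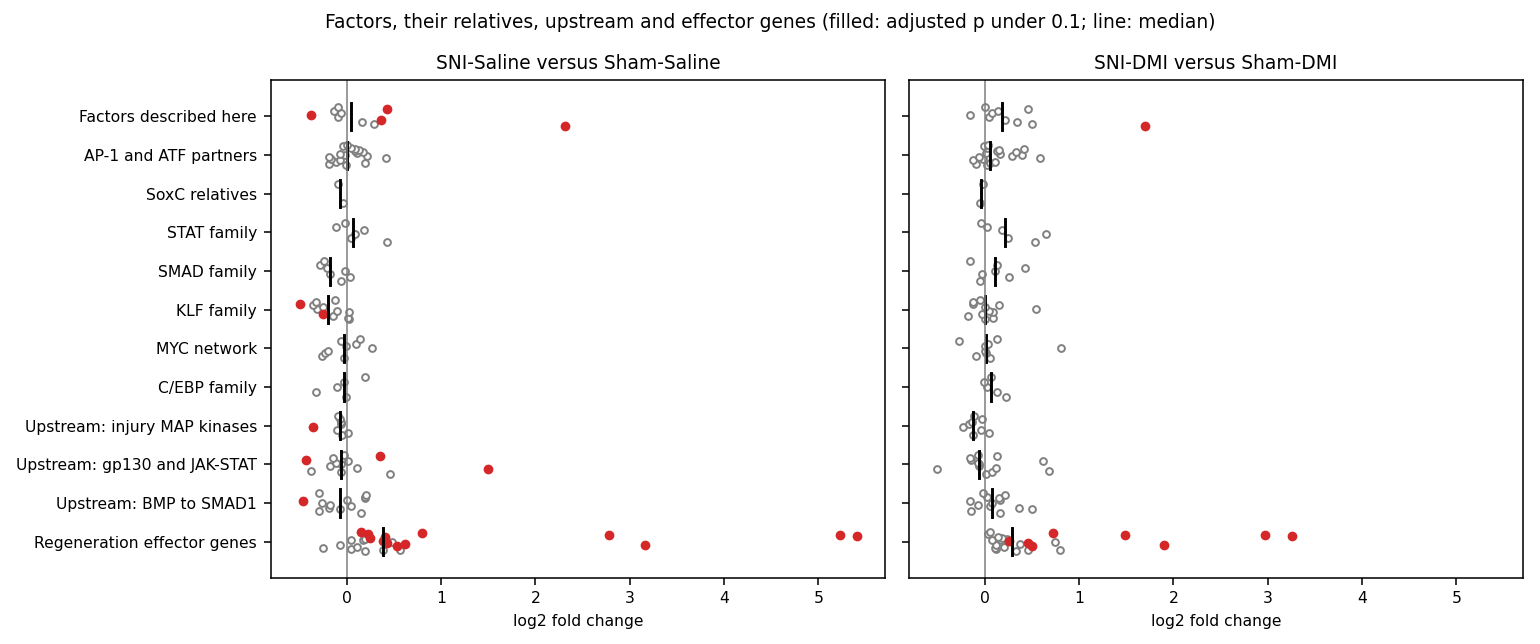
Log2 fold change of each gene (point) in the 10 factors and 11 lists of related genes for both comparisons of injury, filled where the adjusted p was under 0.1, with the list median as a line. The effector genes lie to the right in both panels (medians 0.39 and 0.29), while the AP-1 and ATF partners lie around 0. The lists were chosen with earlier results of these data known.

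The 16 immediate early genes and 15 glucocorticoid-responsive genes were read beside the C/EBP factors and Jun, and some genes stand in more than 1 list. In SNI-Saline against Sham-Saline mice 2 immediate early genes rose and 0 fell (5.85% and 6.18% of genes), Arc (0.43 ± 0.145, adjusted p = 0.0841) and Ier3 (0.21 ± 0.075, adjusted p = 0.0964). Of the glucocorticoid-responsive genes 2 rose and 0 fell, the metallothionein genes Mt1 (0.55 ± 0.081, adjusted p = 0.00186) and Mt2 (0.51 ± 0.111, adjusted p = 0.0180). In Sham-DMI against Sham-Saline mice Arc and Ier3 also rose (0.47 ± 0.145 and 0.39 ± 0.075), while Egr1 and Nr4a2 fell (-0.51 ± 0.154 and -0.39 ± 0.134). There Mt1 rose as well (0.55 ± 0.081, adjusted p = 0.00176), and Klf9, Lcn2 and Per1 fell (-0.35 ± 0.065, -1.11 ± 0.326 and -0.30 ± 0.091), where 11.6% of genes rose and 11.9% fell. In SNI-DMI against SNI-Saline mice Mt1 rose (0.29 ± 0.080, adjusted p = 0.0959) and Klf9 fell (1.32% and 1.61% of genes). The summed level of the glucocorticoid-responsive list overlapped between the groups in all 4 comparisons.

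Some levels are uncertain because the strand setting of the counting is not given in the sources used here. Annotated genes overlap Atf3, Jun, Stat3, Klf7, Cebpb and Cebpd, among them the antisense gene Junos of Jun, Stat5a beside Stat3, and Tmem189 on the strand opposite Cebpb. No annotated gene overlaps Sox11, Smad1, Klf6 or Myc.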

How the data were processed

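DRG RNA from 16 male mice (1 mouse per library, 4 per group) was made into stranded poly(A) libraries and sequenced as paired reads on a NovaSeq. The deposited files hold raw read counts per Ensembl gene for each library, which the authors made against mm10 (their processing notes name HISAT2, HTSeq and DESeq2; versions, annotation release and strand setting are not given in the sources used here). The 5 closing lines of each file, which name no gene, were left out. They held the reads not assigned to genes, and 79.56 to 81.17% of the reads of a library were on genes. Symbols and exon lengths came from GENCODE M21 on GRCm38, which matched 52489 of 52636 identifiers.

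Counts were scaled by TMM and tested with edgeR 4.0.16 (quasi-likelihood, 4 group means, all 16 libraries, filterByExpr). Benjamini-Hochberg adjustment ran over all 21371 genes, and a gene was called at an adjusted p under 0.1. Group values are TMM-scaled CPM. Marker sums were compared as log2 (sum + 1) with exact permutation tests over mice. The alternatives were other scalings and filters, DESeq2 1.42.0, the 8 libraries of a comparison alone, a replicate block, removal of GC and length trends (mgcv 1.9.3), a nominal rule (p under 0.05 with a log2 fold change of 0.32 or more in either direction) and leaving out each library. Scripts were tested on simulated data.

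The factors were fixed by name, and all 10 are named. Of other lists, genes named had an adjusted p under 0.1, at most the 4 with the smallest p per list and comparison. Added to these were genes needed to account for small counts, list members given as examples and effector genes named again in another comparison. The 3 genes most like each factor called after injury were also named. Members and lists were chosen with earlier results of these data known. Intervals cover the spread between mice and counting error. Surgery preceded treatment by 4 weeks per the labels, though the study's methods give months at 1 place. Chi-square per gene between replicates of a group was 10.4 to 44.3, so no library was a copy of another of its group. Libraries of different groups were not compared in this way. 1 gene of the upstream lists is not reported here and was left out of their counts.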

Additional observations from a re-analysis of the deposited data

Results flagged for a closer look

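Of 40 sets of 4 mice (10 factors in 4 groups), 3 held a mouse far from the other 3 by Dixon's ratio, and chance alone gives about 1 in 20. Stat3 was lowest in Sham-Saline replicate 2, at 411 CPM against 447 to 454 CPM in the other mice. Klf6 was highest in SNI-DMI replicate 4, at 75.2 CPM against 62.9 to 64.4 CPM, and that mouse also had the most Atf3, Jun and Sox11 of its group. Myc was highest in Sham-Saline replicate 1, at 16.6 CPM against 15.0 to 15.2 CPM.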

How the results depend on the processing

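Of 1190 values of the factors under other settings, 1119 kept direction and side of the threshold, 18 lost a call, 12 gained one and 41 changed sign. The cause of the changes was not tested. Atf3 and Jun kept their calls after SNI with saline, and Atf3 after SNI with DMI, under all settings run. The calls were 4 factors of 2571 genes for SNI with saline, 1 of 86 for SNI with DMI, 0 of 626 for DMI after SNI, 3 of 5010 for DMI after sham surgery and 0 of 0 for the interaction. The nominal rule gave 1528, 1156, 1224, 2457 and 738 genes in that order, with 4 factors for SNI with DMI and 1 for DMI after SNI. Removing trends on GC content and length gave 1507 genes for SNI with saline, 138 genes and 2 factors for SNI with DMI, 107 genes for DMI after SNI and 1 factor for DMI after sham surgery. DESeq2 gave 502 genes and 4 factors for SNI with DMI, 1859 genes and 1 factor for DMI after SNI and 16 genes for the interaction. With no filter 310 genes and 2 factors were called for SNI with DMI. With 8 libraries 9 genes were called for SNI with DMI and 1812 for DMI after SNI.

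Whether replicate numbers pair the mice was not tested. Correlations of deviations between same-numbered libraries ran from -0.08 to 0.18, and 7 of 16 libraries correlated best with their own number. How many would do so by chance was not worked out. The replicate block gave 172 genes for DMI after SNI and changed no call of a factor. Leaving out 1 library gave 2 to 4, 1 to 4, 0 to 1 and 1 to 3 factors in the order above, and 682 to 3286, 17 to 850, 0 to 1842, 3286 to 6094 and 0 to 1 genes. The mean log2 CPM in place of summed markers left 2 lists without overlap for SNI with saline, DMI after SNI and DMI after sham surgery (4, 1 and 1 by the sum), and leaving out 1 library gave 4 to 5, 0 to 3, 1 to 2 and 1 to 3 lists.

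Signs turned only for changes that were not called. For SNI with DMI, Stat3 was -0.002 under RLE scaling and -0.001 in DESeq2. With trends removed, Klf6 was 0.025 for DMI after SNI, Jun, Sox11, Stat3 and Myc were -0.044, 0.103, 0.032 and -0.014 for DMI after sham surgery, and Sox11 was -0.017 for the interaction. Leaving out 1 library, Stat3 and Klf6 ran from -0.051 to 0.038 and -0.030 to 0.086 for SNI with DMI, and Atf3 and Sox11 from -0.149 to 0.241 and -0.076 to 0.099 for DMI after SNI. For DMI after sham surgery Jun ran from -0.020 to 0.086, Sox11 from -0.092 to 0.089, Stat3 from -0.072 to 0.022, Myc from -0.007 to 0.104 and Cebpd from -0.076 to 0.057, and for the interaction Sox11 ran from -0.075 to 0.122.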
